A study of Mus musculus with 2 samples.

Results

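Natural killer (NK) cells of orthotopic RM-1 prostate tumors were examined in the control and the enzalutamide (ENZ) library. A barcode was taken as an NK cell when it held at least 1000 unique molecular identifiers (UMIs, each standing for 1 captured transcript), at most 20% of them from mitochondrial genes, and at least 2 UMIs summed over the NK receptor genes Ncr1, Klrb1c and Klre1. It also held at most 1 UMI of the T cell genes Cd3d and Cd3e, at most 2 of the macrophage genes C1qa, C1qb and C1qc, and at most 2 of the epithelial keratins Krt8 and Krt18. The rule found 534 NK barcodes among 22524 barcodes that passed the limits on UMIs and mitochondrial share, 384 of 12253 in the control library and 150 of 10271 in the ENZ library. The rule reads expression, so the levels of its own genes are a description and were not tested.

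RM-1 is a mouse prostate cancer cell line, and the tumors were grown in the prostate of C57BL/6 mice. The control library came from vehicle-treated and the ENZ library from enzalutamide-treated tumor, enzalutamide being an inhibitor of the androgen receptor, and the genotype of both is given as WT. Tissue came from a pair of mice, immune cells were enriched and stained for CD45 during sorting, and each treatment gave 1 library by the 10x Genomics single cell 3′ v2 protocol. With 1 library per treatment, treatment, animal, sort and library cannot be told apart, no test between the treatments was possible, and every interval given here is a 95% interval of counting error only.

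NK cells are innate lymphocytes that kill tumor cells without prior priming. They release perforin, which opens the target membrane, together with granzymes, serine proteases that act inside the target. Activating and inhibitory receptors on the NK surface set whether a target is attacked, and NK cells also release chemokines such as Ccl5 and Xcl1 that act on other immune cells.

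The NK barcodes carried 2365524 UMIs in the control library and 1080539 in the ENZ library. Their median depth was 4666 UMIs (range 1049 to 24784) and 1758 genes in the control library, against 5116.5 UMIs (range 1378 to 43021) and 1942 genes in the ENZ library. No NK barcode sequence occurred in both NK sets, and the libraries shared 39 barcode sequences over all barcodes examined.

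The label was checked with the 10 NK marker genes that the rule did not use, all of which were detected in both NK sets. Their summed level was 10768 counts per 1000000 UMIs (CPM) in control and 12460 CPM in ENZ NK barcodes, which was 67.9 and 112 times the level in all other barcodes of the same library. Of the 5 genes named for these cells, Ncr1, which the rule used, was at 145 and 121 CPM, Gzma at 2902 and 1987, Gzmc at 5241 and 7774, Prf1 at 374 and 843, and Nkg7 at 704 and 559, in control and ENZ NK barcodes respectively. The 12 T cell markers outside the rule summed to 565 and 415 CPM, which was 9.34 and 5.56 times the level in all other barcodes. They were led by Trbc1 at 276 and 246 CPM. In the control NK barcodes 10 of the 12 were detected and only Cd6 and Foxp3 were at 0. In the ENZ NK barcodes 7 were detected, and Cd4, Cd8a, Cd8b1, Cd6 and Foxp3 were at 0. B cell markers summed to 1.69 and 0 CPM. Genes of type 2 and type 3 innate lymphoid cells summed to 17.3 CPM in control and 3.70 CPM in ENZ NK barcodes, and Il17a, a cytokine of the type 3 cells, was at 0 in both.

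Markers of other cells were also present. Mast cell markers were at 3.61 and 3.23 times, and red blood cell markers at 3.12 and 0.0302 times, the level in all other barcodes, and each other list below was under that level. Neutrophil markers summed to 332 CPM in control and 59.2 CPM in ENZ NK barcodes, led by S100a9 at 205 and 31.5 CPM. Dendritic cell markers summed to 993 and 495 CPM, led by Cd74 at 692 and 299 CPM. Outside the genes that the rule limits, macrophage and monocyte markers summed to 393 and 380 CPM, led by Lyz2, and cancer cell markers to 11.8 and 20.4 CPM, and fibroblast and endothelial markers to 211 and 252 CPM. Red blood cell markers were at 124 CPM in control and 0.925 CPM in ENZ NK barcodes, and mast cell markers at 80.7 and 25.9 CPM. Leaving out barcodes with over 5 UMIs of such markers kept 247 control and 104 ENZ barcodes and gave a granzyme median log2 ratio (ENZ over control) of 0.80 in place of 1.14, but it also took out the 5 deepest barcodes of each library, which held 11 to 75 such UMIs in control and 25 to 29 in ENZ. Allowing no C1q or keratin UMI kept 255 and 91 barcodes and gave 0.82.

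The limit of the receptor sum lay on a gradual slope. Barcodes with a receptor sum of 1 that met the other limits numbered 281 in control and 137 in ENZ, and their Gzma level was 896 and 618 CPM. With a receptor sum of 2 the Gzma level was 2528 CPM over 120 control barcodes and 1135 CPM over 49 ENZ barcodes, and with a sum of 0 it was 24.1 and 22.8 CPM. Barcodes just outside the rule therefore held NK transcripts at a lower level, and the NK sets are a strict selection.

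The share of NK barcodes was lower in the ENZ library. NK barcodes made up 3.13% (exact binomial interval 2.83 to 3.46) of all control barcodes and 1.46% (1.24 to 1.71) of all ENZ barcodes, a difference of -1.67 percentage points (Newcombe interval -2.07 to -1.28). Among barcodes with at least 1 UMI of Ptprc, the gene of CD45, the shares were 5.38% (4.86 to 5.94) and 2.998% (2.54 to 3.51). CD8 T barcodes were chosen by at least 2 UMIs of Cd3d and Cd3e and at least 2 of Cd8a and Cd8b1. They also met the UMI, mitochondrial, C1q and keratin limits of the NK rule and held under 2 UMIs of its receptor genes. NK barcodes were 87.5% of the NK and CD8 T sum in the control library and 62.0% in the ENZ library. The CD8 T barcodes numbered 55 and 92. Shares depend on the enrichment and sort of each tumor, whose part in the difference cannot be told apart from that of the treatment.

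Of the 9 granzymes listed, 6 are neighbours in the genome. In the GENCODE M21 annotation of the GRCm38 build, which covered 32235 of the 32285 gene identifiers, the genes Gzme, Gzmd, Gzmg, Gzmn, Gzmf, Gzmc and Gzmb lie in this order on chr14:56117626-56262260, a stretch of 145 kb, all on the minus strand, whereas Gzma lies on chromosome 13. The promoters of Gzmc, Gzmd, Gzmf and Gzmg are shown as members of the cluster with and without the exact CRE letters, and that of Gzma as a granzyme outside the cluster. Each sequence covers the bases from 210 to 41 before the RefSeq transcript start (GRCm38.p6, minus strand, 5′ to 3′). Capitals mark TGTGGT or its reverse complement ACCACA, the letters bound by RUNX factors, and TGACGTCA, the palindromic cAMP response element (CRE) bound by CREB family factors.

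Gzmc chr14:56234698-56234867: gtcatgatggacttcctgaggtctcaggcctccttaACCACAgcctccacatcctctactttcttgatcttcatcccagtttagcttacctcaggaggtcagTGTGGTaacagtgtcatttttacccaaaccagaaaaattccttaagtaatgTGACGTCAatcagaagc
Gzmd chr14:56132634-56132803: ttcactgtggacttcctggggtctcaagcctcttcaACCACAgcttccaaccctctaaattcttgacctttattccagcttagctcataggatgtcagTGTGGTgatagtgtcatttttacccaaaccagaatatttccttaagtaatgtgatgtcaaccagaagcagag
Gzmf chr14:56211448-56211617: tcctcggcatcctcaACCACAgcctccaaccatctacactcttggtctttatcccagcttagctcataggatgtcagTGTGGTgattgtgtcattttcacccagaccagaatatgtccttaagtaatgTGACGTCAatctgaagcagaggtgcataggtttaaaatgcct
Gzmg chr14:56159620-56159789: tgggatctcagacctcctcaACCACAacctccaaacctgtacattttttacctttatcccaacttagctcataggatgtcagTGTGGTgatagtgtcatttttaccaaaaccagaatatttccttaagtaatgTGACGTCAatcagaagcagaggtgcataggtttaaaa
Gzma chr13:113101022-113101191: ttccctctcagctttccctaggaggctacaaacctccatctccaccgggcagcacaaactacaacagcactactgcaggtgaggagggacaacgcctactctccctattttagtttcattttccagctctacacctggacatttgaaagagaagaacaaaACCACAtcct

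In the 300-base promoters, from 250 bases before to 50 after the start, the RUNX letters occurred 2 times in each of Gzmb, Gzmc, Gzmd, Gzme, Gzmf and Gzmg and 1 time in Gzma and Prf1, searched on both strands. They occurred in 16.8% of all 32851 promoters of the RefSeq table. The CRE letters occurred 1 time in Gzmc, Gzmf and Gzmg and in 1.79% of all promoters. Gzmd and Gzme held an octamer that differed from TGACGTCA by C4T and G5A respectively, and Gzmb 1 that differed by T1A, with positions counted from 1 at the 5′ end of the motif, and 12.5% of all promoters held an octamer within 1 base of it. The aligned promoters of Gzmd and Gzme were 93.4% identical, those of Gzmf and Gzmg 84.8%, those of Gzmc and Gzmd 83.4%, and that of Gzma was 48.5% identical to that of Gzmc. These matches describe the letters and not a bound site. Near-identical transcripts could share reads, and 1.70% of the 90-base words in the last 500 bases of Gzmd and Gzme were common to both, with none for the other granzymes.

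Within each library the NK barcodes spread between a pole with Gzmc and a pole with Ccl5. Each barcode was thinned to 1000 UMIs so that depth did not set detection. In the control library 105 of 384 barcodes held Gzmc without Ccl5, 153 held Ccl5 without Gzmc, 31 held both and 95 neither. In the ENZ library the numbers were 56, 50, 8 and 36 of 150. The shares with Gzmc alone were 27.3% (22.9 to 32.1) and 37.3% (29.6 to 45.6), and those with Ccl5 alone 39.8% (34.9 to 44.9) and 33.3% (25.9 to 41.5), so that the intervals of the libraries overlapped for both poles. The poles were chosen after the values had been seen and are ranges of expression, not cell types.

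The granzymes were not 1 group across barcodes. Spearman's rho between thinned counts was 0.83 in control (384 barcodes) and 0.73 in ENZ (150 barcodes) for Gzmd and Gzme, 0.55 and 0.75 for Gzmd and Gzmg, and 0.51 and 0.55 for Gzmc and Gzmd. Gzmc and Gzmg had a rho of 0.30 and 0.40. The rho of Gzmf with Gzmc, Gzmd, Gzme and Gzmg was 0.14, 0.11, 0.12 and 0.11 in control, against 0.37, 0.50, 0.37 and 0.51 in ENZ. Before thinning Gzmf was found in only 18 control and 17 ENZ barcodes, with 81.5% and 44.8% of its UMIs in 1 barcode. Most of its thinned counts were thus 0, so the low rho in control cannot tell whether Gzmf stood apart there. Gzma had a rho of -0.09 with Gzmd in control and -0.13 in ENZ, but 0.41 and 0.39 with Ccl5 and 0.30 and 0.32 with Nkg7, a membrane protein of cytotoxic granules. Gzmc and Ccl5 had a rho of -0.44 and -0.47. The barcodes of each correlation share a library, and the values are a description.

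**Figure D1:**
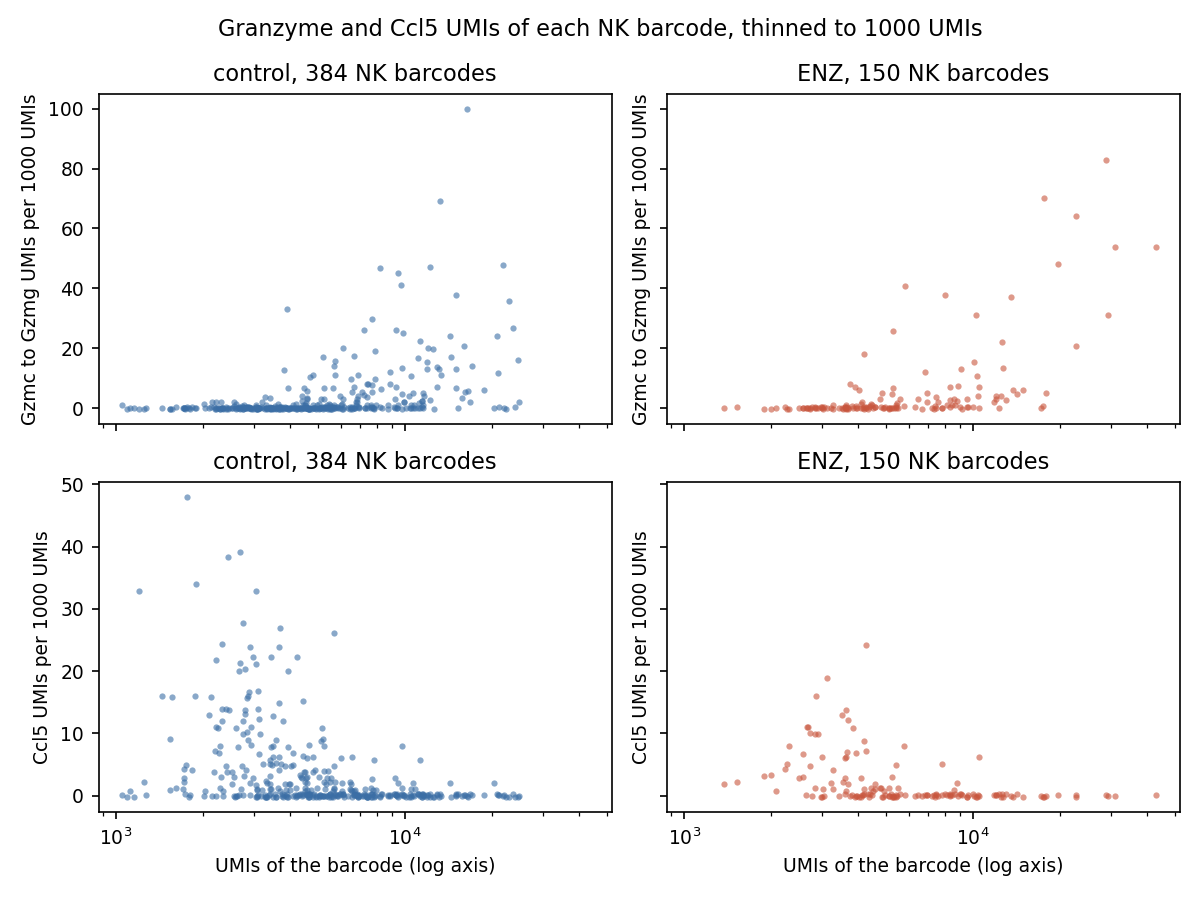
Each point is 1 NK barcode (control left, ENZ right), plotted by its UMIs (log axis) and by its UMIs of Gzmc to Gzmg summed (top) or of Ccl5 (bottom) after thinning to 1000 UMIs, with points spread slightly in height. High Gzmc to Gzmg values lie among deep barcodes, up to 100 of 1000 UMIs in control and 83 in ENZ, and high Ccl5 values among shallow ones.

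Depth moved with the poles. The Gzmc barcodes had a median of 8842 UMIs in control and 8759 in ENZ, and the Ccl5 barcodes 3417 and 3403. To narrow this gap, the poles were compared among barcodes of 3000 to 6000 UMIs, where 22 control and 15 ENZ barcodes held Gzmc alone. In the same band 72 and 30 held Ccl5 alone. The Gzmc barcodes stayed deeper there, with medians of 4647.5 against 3934 UMIs in control and 4470 against 3687 in ENZ. The genes named for the poles here and below were chosen after their values had been seen.

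At this depth Bcl2, Il18r1 and Cd7 were at a higher level at the Ccl5 pole in both libraries. The survival gene Bcl2 was at 405 CPM in Ccl5 against 183 CPM in Gzmc barcodes of the control library and at 906 against 171 CPM in ENZ. Il18r1, a chain of the interleukin 18 receptor, was at 115 against 29.0 CPM in control and at 91.4 against 28.6 CPM in ENZ. Cd7 showed 108 against 19.3 CPM in control and 133 against 14.3 CPM in ENZ. The lower values of Il18r1 and Cd7 rest on 1 to 3 UMIs, and the interval of the Il18r1 ratio in ENZ included 1. Gzma was also on this side, at 4996 against 2210 CPM in control and 3589 against 2513 CPM in ENZ, as was Klra8, the gene of the activating receptor Ly49H, at 611 against 328 CPM and 457 against 228 CPM.

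The Gzmc pole had higher levels of Gzmd, Tnfrsf9 and Epas1, given here in the order Gzmc against Ccl5 barcodes. Gzmd was at 299 CPM in control and 1542 CPM in ENZ Gzmc barcodes of this depth and at 0 in the Ccl5 barcodes of both. Tnfrsf9, the costimulatory receptor 4-1BB, was at 444 against 159 CPM in control and 443 against 125 CPM in ENZ. Epas1, the hypoxia inducible factor 2α, was at 309 against 47.3 CPM in control and 271 against 8.31 CPM in ENZ, the last being 1 UMI. Pglyrp1, a peptidoglycan binding protein of granules, was at 338 against 145 CPM in control and 200 against 83.1 CPM in ENZ. Prf1 was at 232 against 125 CPM in control and 300 against 241 CPM in ENZ. For Pglyrp1 and Prf1 the interval of the ratio included 1 in ENZ (0.994 to 6.05 and 0.675 to 2.26). The 18 glycolysis and hypoxia genes summed to 5521 against 3418 CPM in control and 4797 against 2567 CPM in ENZ.

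**Figure D2:**
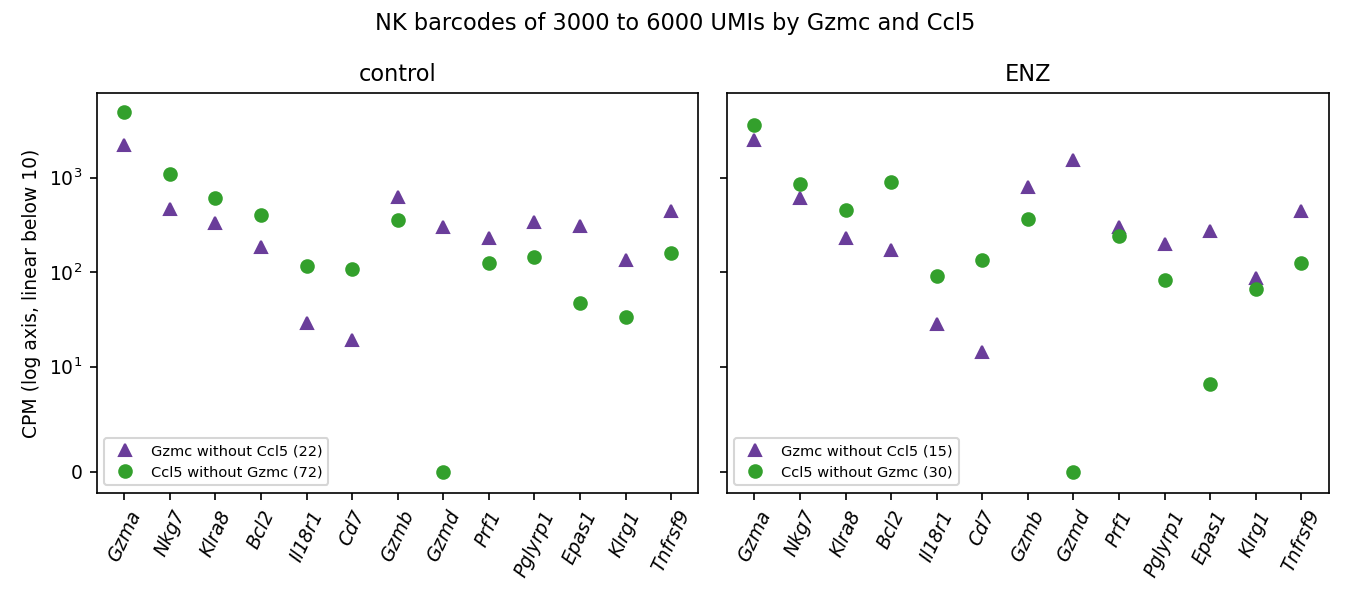
Levels in CPM (log axis, linear below 10) of 13 genes in NK barcodes of 3000 to 6000 UMIs that held Gzmc without Ccl5 (triangles) or Ccl5 without Gzmc (circles) after thinning, with control left and ENZ right. The points of the 6 genes at left (Gzma to Cd7) lie higher for Ccl5 barcodes and those of the 7 at right (Gzmb to Tnfrsf9) higher for Gzmc barcodes, but in ENZ the intervals of the ratio between the poles include 1 for Nkg7, Il18r1, Prf1, Pglyrp1 and Klrg1.

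Over all depths, where the poles differed more in depth, some lists leaned to 1 pole. Over all 4124 genes 1855 in control and 1862 in ENZ were higher in Gzmc barcodes. Of the 15 glycolysis and hypoxia genes compared, 11 were higher in Gzmc than in Ccl5 barcodes in each library, with a median log2 ratio of 1.16 in control and 1.28 in ENZ, against -0.10 and -0.14 over all genes. Of 12 cell cycle genes, 12 in control and 11 in ENZ were higher in Gzmc barcodes, with medians of 0.64 and 1.49. Of 18 cytokine receptor and signalling genes, 4 in control and 5 in ENZ were higher in Gzmc barcodes, with medians of -0.84 and -0.98. The transcription factor list had medians of -0.61 and -0.55, and 4 of its 16 genes were higher in Gzmc barcodes in each library. Of 13 genes of cytotoxic granules and death ligands 8 and 9 were higher, with medians of 0.15 and 0.24, and of 17 activating receptors and adaptors 6 were higher in each library, with medians of -0.20 and -0.79.

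The granzymes of the chr14 cluster were at a higher level in ENZ NK barcodes, where the 5 deepest barcodes held 40.1% to 74.3% of the UMIs of each. Gzmd, Gzme, Gzmf and Gzmg were also higher in ENZ among barcodes of 3000 to 6000 UMIs. For Gzmf and Gzmg, however, most ENZ UMIs of that band, 95 and 107, were in 1 barcode of 5824 UMIs. Over the 3340 genes that reached 50 CPM in at least 1 of the NK sets, 194 (5.81%) were at least 1.5 times higher in ENZ and 99 (2.96%) at least 1.5 times lower, with a median log2 ratio of 0.03. Of 9 granzymes, 7 were compared, 5 of which (Gzmb, Gzmd, Gzme, Gzmf and Gzmg) were at least 1.5 times higher and none at least 1.5 times lower. The granzyme median log2 ratio was 1.14 and the summed level went from 10569 CPM in control to 17367 CPM in ENZ.

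Gzmc was at 5241 CPM (Poisson interval 5149 to 5334) in control and 7774 CPM (7609 to 7942) in ENZ NK barcodes, a ratio of 1.48 (1.44 to 1.53). Gzmb, the main activator of caspases among granzymes, was at 678 CPM (646 to 712.5) and 1170 CPM (1106 to 1236), a ratio of 1.72 (1.60 to 1.86), which was 1.13 (1.02 to 1.24) without the 5 barcodes richest in it. Gzmd was at 892 and 2554 CPM, a ratio of 2.86 (2.70 to 3.03). All 3 were higher in the ENZ library beyond counting error. Gzme was at 413 and 911 CPM, Gzmg at 290 and 1496 CPM and Gzmf at 140 and 1463 CPM. The same direction held for these 3, with Gzmf the farthest apart at a ratio of 10.5 (9.31 to 11.85). Gzmk and Gzmm were under 50 CPM in both sets, with 8 and 21 UMIs in control and 1 and 12 in ENZ.

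The UMIs behind these levels sat in few barcodes. Gzmf was found in 18 control and 17 ENZ barcodes, and its 5 highest barcodes held 94.5% and 97.6% of its UMIs. Gzmd was found in 45 and 25 barcodes, with 53.8% and 73.8% of its UMIs in 5 of them. The 5 barcodes with most Gzmd were also the 5 with most Gzme in both libraries. The ENZ barcode richest in Gzmf held 709 Gzmf, 611 Gzmg, 414 Gzmd and 770 Gzmc UMIs among its 28797 UMIs. The deepest ENZ barcode, with 43021 UMIs and a receptor sum of 35, held 285 Gzmf, 490 Gzmd and 1148 Gzmc UMIs and neither Gzma nor Ccl5.

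The 5 deepest barcodes of each library, chosen by depth alone after the values had been seen, held 5.07% of the NK UMIs in control and 14.3% in ENZ. In ENZ these 5 held 65.4% of the Gzmd, 64.3% of the Gzmf, 74.3% of the Gzmg, 40.1% of the Gzmc and 37.1% of the Prf1 UMIs. Without them Gzmc was at 4865 CPM in control and 5436 CPM in ENZ, Gzmd at 774 and 1033, Gzme at 369.2 and 369.4, Gzmg at 244 and 448, and Gzmf at 147 and 609. Gzme then no longer differed over the remaining barcodes, and the granzyme median log2 ratio was 0.26 in place of 1.14. Among barcodes of 3000 to 6000 UMIs, however, Gzmd was at 46.8 CPM in control and 396 CPM in ENZ, and Gzme at 17.0 and 106. Gzmf was at 7.09 and 355 CPM and Gzmg at 1.42 and 430 CPM there. Of these, 1 ENZ barcode of 5824 UMIs held 95 Gzmf and 107 Gzmg UMIs, most of the ENZ UMIs of both genes in the band. The difference of Gzmf and Gzmg there thus rests mainly on that barcode. From 1000 to 3000 UMIs Gzmd was at 5.19 and 0 CPM and Gzme at 0 in both. A doublet caller removed 13 control and 3 ENZ NK barcodes and left the granzyme median log2 ratio over all depths at 1.09. Such a caller does not see a pair of NK cells in 1 droplet, and whether a deep barcode was 1 cell was not tested.

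The share of barcodes with these granzymes differed less than their level. After thinning, Gzmc was found in 35.4% (30.6 to 40.4) of control and 42.7% (34.6 to 51.0) of ENZ NK barcodes. At least 1 of Gzmd, Gzme, Gzmf and Gzmg was found in 9.90% (7.10 to 13.3) and 14.0% (8.88 to 20.6), and Gzmb in 107 of 384 (23.4 to 32.6%) and 45 of 150 (22.8 to 38.0%). The intervals overlapped in each case. In keratin barcodes, which should lack these genes, Gzmc was found in 1.13% of control and 0.327% of ENZ barcodes thinned in the same way. These shares were below those in NK barcodes. The keratin barcodes had median depths of 30855.5 and 28761 UMIs, against 4666 and 5116.5 in NK barcodes. Stray RNA may be more diluted in such deep barcodes, so this background may be too low for NK barcodes.

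**Figure D3:**
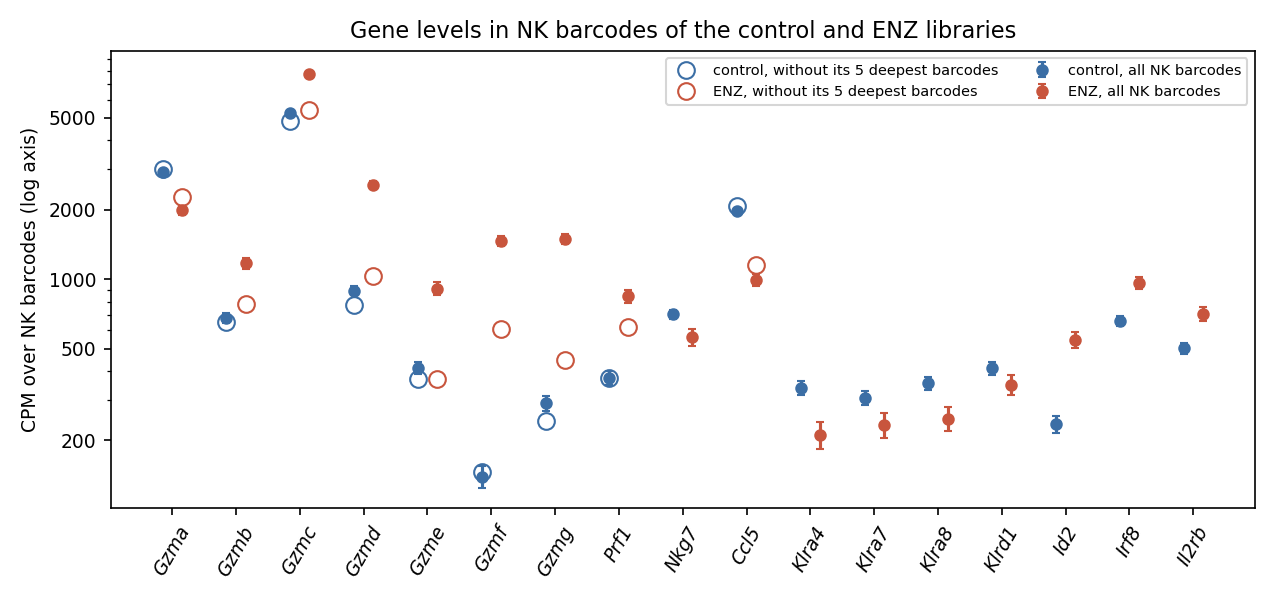
Levels in CPM (log axis) of 17 genes over the NK barcodes of the control (blue) and ENZ (red) library, with bars for the 95% Poisson interval of counting error and open circles for levels without the 5 deepest barcodes of each library (shown for Gzma to Prf1 and Ccl5). Gzmd, Gzme, Gzmf and Gzmg move down most in ENZ without these barcodes, while Gzma and Ccl5 stay lower and Prf1 stays higher than in control.

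Perforin was higher in the ENZ library, also without the deep barcodes. Prf1 was at 374 CPM (349 to 399) in control and 843 CPM (789 to 900) in ENZ, a ratio of 2.26 (2.05 to 2.48). Without the 5 deepest barcodes it was at 374 and 619 CPM. By depth, Prf1 was at 197 and 111 CPM from 1000 to 3000 UMIs (ratio 0.565, 0.195 to 1.35). It was at 163 and 260 CPM from 3000 to 6000 (1.59, 1.17 to 2.14) and at 498 and 1130 CPM from 6000 UMIs. It was found in 20.6% (16.6 to 24.97) and 26.0% (19.2 to 33.8) of thinned barcodes, intervals that overlapped. The difference of 5.43 percentage points was 3.69 with another random draw of the thinning, 2.58 when thinned to 2000 UMIs and 11.4 without thinning. Of 13 compared genes of cytotoxic granules and death ligands, 3 were at least 1.5 times higher (5.81% of all genes were) and none lower, and the median log2 ratio was 0.18. Rab27a, a GTPase that docks lytic granules, was at 89.6 and 157 CPM, a ratio of 1.76. Srgn, the proteoglycan that packs granzymes, was at 1177 and 1387 CPM, while Serpinb6b, a protease inhibitor, was at 462 and 368 CPM.

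Gzma, Ccl5 and Nkg7 were lower in ENZ NK barcodes. Gzma, a tryptase, was at 2902 CPM (2834 to 2972) in control and 1987 CPM (1904 to 2073) in ENZ, a ratio of 0.685 (0.652 to 0.719). Ccl5, a chemokine that attracts T cells and monocytes, was at 1982 CPM (1926 to 2040) and 990 CPM (932 to 1051), a ratio of 0.4996 (0.467 to 0.534). Nkg7 was at 704 and 559 CPM, a ratio of 0.794 (0.722 to 0.872). All 3 were lower beyond counting error. Gzma was found in 62.2% (57.2 to 67.1) and 52.7% (44.4 to 60.9) of thinned barcodes and Ccl5 in 47.9% (42.8 to 53.0) and 38.7% (30.8 to 47.0), with overlapping intervals. The Gzma difference of -9.57 points was -14.4 with another draw of the thinning. Without the 5 deepest barcodes Gzma was at 2991 and 2273 CPM and Ccl5 at 2074 and 1153 CPM.

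The difference in Gzma and Ccl5 was also present at like depth. Among barcodes of 1000 to 3000 UMIs (85 control and 22 ENZ) Gzma was at 3941 and 1856 CPM, among those of 3000 to 6000 UMIs (163 and 68) at 3281 and 2473 CPM, and among those of 6000 or more (136 and 60) at 2584 and 1803 CPM. Ccl5 was at 9422 and 4824 CPM, 3165 and 2309 CPM, and 437 and 183 CPM in the same bands. Gzma and Ccl5 were thus lower in ENZ in each band, with Ccl5 also lower in deeper than in shallower barcodes of both libraries. Gzmc had the opposite order with depth, at 140, 1247 and 7829 CPM in control and 74.2, 1486 and 10848 CPM in ENZ.

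**Figure D4:**
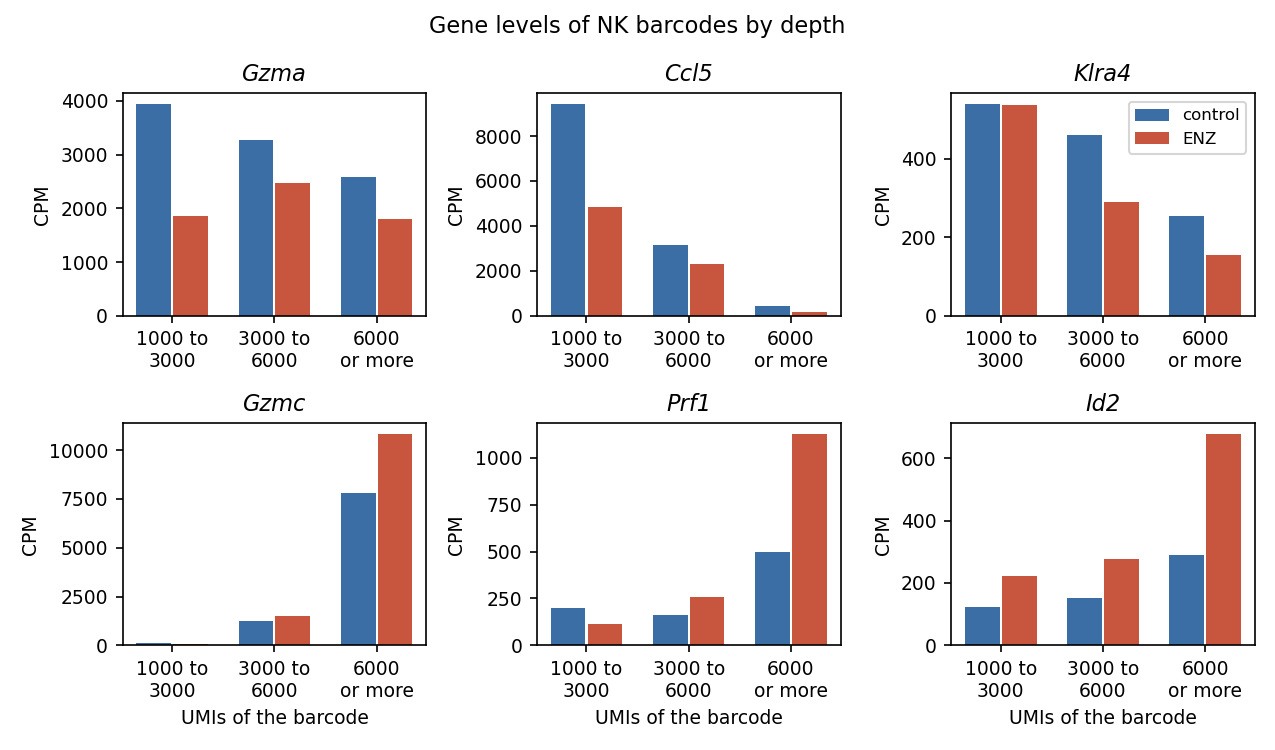
Levels in CPM of 6 genes in NK barcodes of 3 depth bands (85, 163 and 136 control barcodes in blue, 22, 68 and 60 ENZ barcodes in red). Gzma and Ccl5 are lower and Id2 is higher in ENZ in each band, Klra4 differs in the deeper bands, and Gzmc and Prf1 are higher in ENZ from 3000 UMIs.

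Among receptors of the Ly49 family, which recognise MHC class I or related ligands and are each carried by a part of the NK cells, some were lower and others were not. Klra4 and Klra8 encode the activating receptors Ly49D and Ly49H in C57BL/6 mice, although the list used here places them with the inhibitory receptors. Klra4 was at 338 CPM (315 to 362) in control and 211 CPM (185 to 240) in ENZ, a ratio of 0.624, and was the 1 gene at least 1.5 times lower among the 11 of that list that reached 50 CPM. This fold was lost in 6 of 18 alternatives, with a ratio of 0.750 as a mean of barcode CPM and a log2 ratio of -0.19, in place of -0.68, with the rule on thinned barcodes. Klra8 was at 353 and 248 CPM (ratio 0.702, 0.609 to 0.806) and Klra7 at 306 and 232 CPM (0.759, 0.655 to 0.877), whereas Klra3 was at 65.5 and 88.8 CPM (1.36, 1.04 to 1.76). Among barcodes of 1000 to 3000 UMIs the ratios of Klra4, Klra8 and Klra7 were 0.998, 0.962 and 1.08, with intervals that included 1. Klrc1, the NKG2A chain, was at 102 and 135 CPM (1.32, 1.07 to 1.63). Klrd1, the CD94 chain that pairs with NKG2 receptors, was at 411 and 348 CPM and was found in 34.9% (30.1 to 39.9) and 22.7% (16.2 to 30.2) of thinned barcodes, but in 75% and 69.3% without thinning. Klra4 was also found in 5.66% of control and 6.35% of ENZ keratin barcodes, so its level is less particular to NK cells than that of Klra8, found in 0.0906% of control keratin barcodes.

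Havcr2, the checkpoint receptor TIM-3, went the other way, at 31.3 CPM (24.6 to 39.3) in control and 99.0 CPM (81.2 to 120) in ENZ, a ratio of 3.17 (2.33 to 4.32). It was found in 45 control and 27 ENZ barcodes, and its 5 highest barcodes held 25.7% and 56.1% of its UMIs. Of the 11 genes of the list compared, 3 were at least 1.5 times higher (Havcr2, Cd96 and Ctla4) and 1 lower (Klra4), where 5.81% of all genes were higher and 2.96% lower, and the median log2 ratio was 0.40. Without the 5 barcodes richest in each gene 2 were higher and 3 lower, where 3.06% of all genes were higher and 6.68% lower. Without its 5 richest barcodes Ctla4 had a ratio of 1.44. The checkpoint genes Pdcd1, Lag3 and Tigit were under 50 CPM in both sets, with 2, 15 and 34 UMIs in control and 2, 13 and 21 UMIs in ENZ.

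Activating receptors and their adaptors that reached 50 CPM were alike between the libraries for the most part. Of those under it, Cd160 was found in 69 control and 11 ENZ barcodes and Cd226 in 30 and 25. Without the richest barcode their ratios were 0.271 (0.135 to 0.495) and 1.97 (1.21 to 3.20). Of the 14 genes compared, 2 were at least 1.5 times higher (5.81% of all genes were) and none lower (2.96% were), and the median log2 ratio was -0.10. The adaptors Tyrobp, at 1285 and 1139 CPM, and Fcer1g, at 929 and 872 CPM, and the NKG2D receptor gene Klrk1, at 232 and 216 CPM, had ratios of 0.887, 0.939 and 0.929. The pair past the fold were the SLAM family receptors Slamf7, at 85.8 and 141 CPM, and Cd244a, at 73.1 and 117.5 CPM, with ratios of 1.64 (1.32 to 2.03) and 1.61 (1.27 to 2.03). Without the 5 barcodes richest in each, neither passed the fold, with ratios of 1.26 (0.957 to 1.64) and 1.46 (1.11 to 1.91).

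Among transcription factors, Id2 stood out. Id2, an inhibitor of E proteins needed for innate lymphocytes, was at 235 CPM (216 to 256) in control and 547 CPM (504 to 593) in ENZ, a ratio of 2.32 (2.06 to 2.61). It was found in 16.9% (13.3 to 21.1) and 26.7% (19.8 to 34.5) of thinned barcodes, and its level was higher in ENZ in each depth band, although from 1000 to 3000 UMIs the interval of the ratio (0.82 to 3.72) included 1. In CD8 T barcodes Id2 was also higher, at 115 CPM in control and 255 CPM in ENZ. Bhlhe40 was at 171 and 315 CPM, a ratio of 1.84 (1.59 to 2.13), and these 2 were the only ones of 16 compared factors past the fold, which 5.81% of all genes passed upward and 2.96% downward. The NK lineage factors Eomes, at 95.5 and 131 CPM, and Tbx21, at 117 and 143 CPM, and the shared factor Runx3, at 766 and 807 CPM, had ratios of 1.38, 1.22 and 1.05.

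Cytokine receptor genes did not move together. Il2rb and Il2ra, 2 chains of the interleukin 2 receptor, were higher in ENZ. Il2rb, the signalling chain shared with interleukin 15, was at 502 and 709 CPM (ratio 1.41, 1.29 to 1.55) and Il2ra at 15.2 and 74.0 CPM (4.86, 3.24 to 7.42). Il2ra was held by 25 control and 24 ENZ barcodes. Il12rb2, a chain of the interleukin 12 receptor, was lower, at 221 and 142.5 CPM (0.645, 0.535 to 0.773). The Il12rb2 ratio came under the fold in 5 of 18 alternatives. Of 18 compared genes 2 were at least 1.5 times higher and 2 lower, with a median log2 ratio of 0.12, beside 5.81% and 2.96% of all genes. Of the 6 cytokines and chemokines made by NK cells that were compared, only Ccl5 passed the fold. Without the 5 barcodes richest in each gene 3 were lower by it, beside 6.68% of all genes. That removal takes a larger part of the ENZ than of the control barcodes and tends to lower ratios by construction. Xcl1, which attracts type 1 dendritic cells, was at 232.5 and 167 CPM (0.716, 0.602 to 0.849), and Ifng at 122 and 101 CPM (0.829, 0.658 to 1.04), an interval that includes 1.

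Maturation and residency genes were sparse, and the counts of 1 or 2 higher genes in each list stand beside 5.81% of all genes, and the 1 lower gene beside 2.96%. Itgam, which marks mature NK cells, was found in 4.95% of control and 3.33% of ENZ thinned barcodes, and Itga1, which marks tissue resident innate lymphocytes, in 2.34% and 2.67%. Cxcr6 was found in 0 of 384 control barcodes, which allows a share of barcodes with a UMI of up to 0.781% and sets no limit on cells that express it, and in 0.667% of ENZ barcodes. Of 7 compared genes of residency and type 1 innate lymphoid cells, 2 were at least 1.5 times higher in ENZ, the early activation antigen Cd69, at 84.5 and 140 CPM, and the integrin Itgb3, at 93.0 and 146 CPM. Of 6 compared maturation genes 2 were higher, Spn, at 41.4 and 69.4 CPM, and Ly6c2, which monocytes also express. The 1 lower gene, Cma1, is a mast cell protease with 92.1% of its control UMIs in 1 barcode. Of 10 trafficking receptors and integrins 1 was higher, Itgb7, at 33.8 and 53.7 CPM. Without the 5 richest barcodes Itgb3 and Itgb7 had ratios of 1.45 and 1.46, under the fold.

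No cell cycle gene passed the fold over all NK barcodes. Without the 5 barcodes richest in each gene 7 of 10 were lower by it, where 6.68% of 3337 genes were lower and 3.06% higher. That removal takes 5 of 150 ENZ but 5 of 384 control barcodes, chosen by the gene itself. It tends to lower ratios by construction, so no conclusion is drawn from these calls. For Top2a it took 51.0% of the ENZ and 22.1% of the control UMIs. Top2a then had a ratio of 0.452 (0.345 to 0.586), Hmgb2 0.561 (0.493 to 0.636) and Stmn1 0.555 (0.452 to 0.678). Over all barcodes 9 of the 10 had a ratio under 1, against 1511 of all 3340 genes, and the median log2 ratio was -0.36. Top2a, a topoisomerase of dividing cells, was at 191.5 CPM (174 to 210) in control and 132 CPM (112 to 156) in ENZ, and Hmgb2 at 620 and 462 CPM. Mki67 or Top2a was found in 14.1% (10.7 to 17.9) and 9.33% (5.20 to 15.2) of thinned NK barcodes, with overlapping intervals, against 26.8% and 24.9% of keratin barcodes. With another random draw of the thinning the difference was 2.57 points in place of -4.73, so its direction was not settled.

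In other lists few or no genes passed the fold, beside 5.81% of all genes higher and 2.96% lower. Of 15 glycolysis and hypoxia genes and 10 MHC class I genes none passed the fold in either direction, with median log2 ratios of 0.24 and -0.14. Without the 5 barcodes richest in each gene 1 MHC class I gene was lower by it, where 6.68% of all genes were. Of 19 immediate early genes 2 were lower, led by Fos at 98.9 and 44.4 CPM (ratio 0.449, 0.322 to 0.615), although 1 control barcode held 28.6% of the Fos UMIs. Of 12 heat shock genes 1 was higher, Hspb1, for which 1 ENZ barcode held 27.2% of the UMIs and the ratio without the 5 richest barcodes was 0.850 in place of 1.77. Of 6 interferon stimulated genes Isg15 was lower, at 76.1 and 43.5 CPM, and Ly6a higher, at 39.3 and 66.6 CPM.

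A list of 9 genes, named rRNA-like here, holds Gm42418, AY036118, Lars2, Cmss1, Camk1d, Gphn, Cdk8, Filip1l and Gm19951, and whether their reads come from ribosomal RNA was not tested. Of these 9 genes 7 were at least 1.5 times higher in ENZ NK barcodes, beside 5.81% of all genes, with a median log2 ratio of 0.85, and their sum was 51838 CPM in control and 90050 CPM in ENZ. The same sum was 53733 and 99340 CPM in CD8 T barcodes, with 7 of 9 past the fold, where 11.7% of all 3666 genes compared were. The difference between the cell types was not tested. Gm42418 alone was at 36289 and 68515 CPM. Camk1d, the kinase gene that the study centres on, was placed in this list and was at 1740 and 2824 CPM in NK barcodes, a ratio of 1.62. Without mitochondrial genes, ribosomal protein genes and these genes in the denominator 305 genes were higher and 189 lower, in place of 194 and 99.

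**Figure D5:**
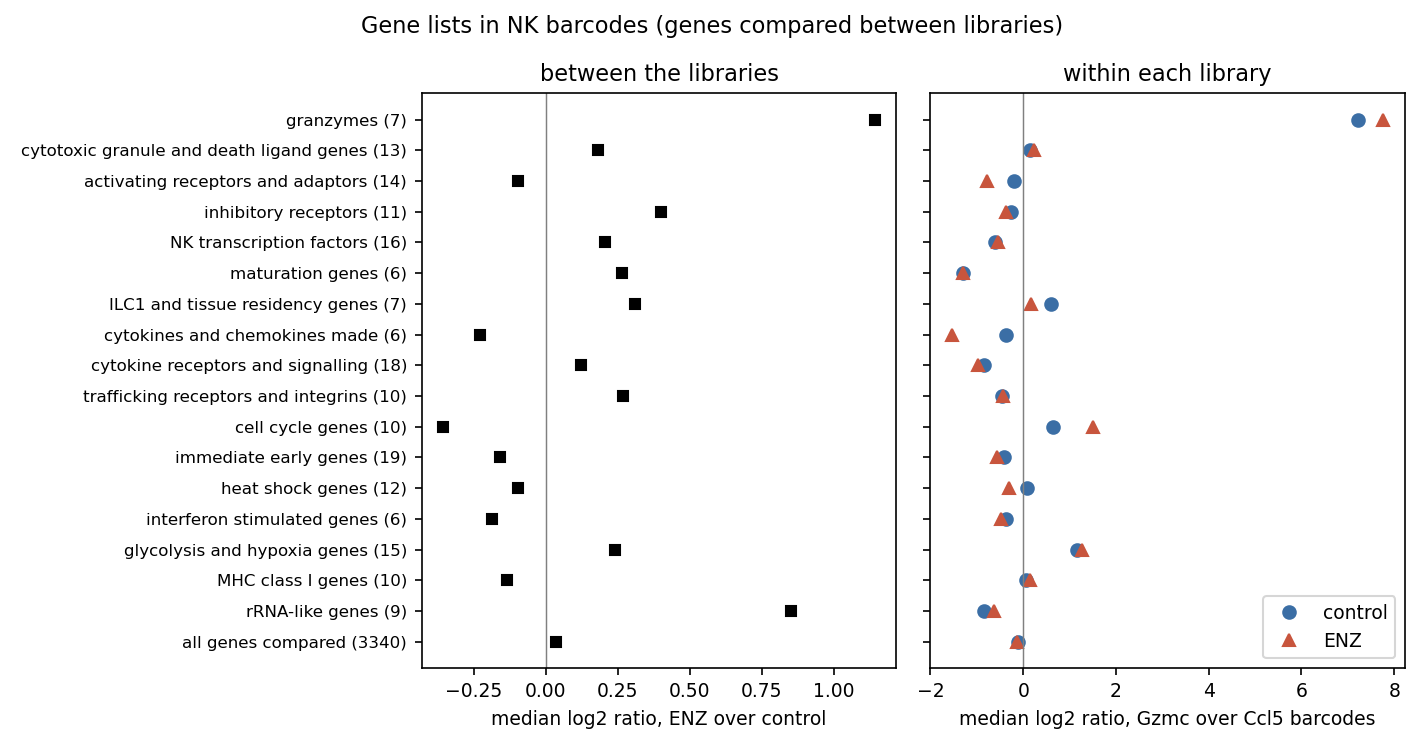
Median log2 ratio of each gene list, with the number of genes compared between the libraries in parentheses, for ENZ over control NK barcodes (left) and for Gzmc over Ccl5 barcodes within the control (circles) and ENZ (triangles) library (right). Granzymes and the list named rRNA-like lie farthest to the right at left, and the list medians of the libraries at right lie apart mainly for cytokines made and cell cycle genes. The lists of granzymes and of cytokines made hold Gzmc and Ccl5, the genes that chose the barcodes at right, so their places there are in part set by that choice.

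The genes with the largest ratios between the libraries were in part those of single barcodes. Among the 12 highest by rule, Proc, the protein C zymogen, had all 72 of its ENZ UMIs in 1 barcode and Dna2 97.1% of its UMIs in 1 barcode. Tff1, a trefoil peptide, had 0 UMIs in control and 67 in ENZ, in 7 barcodes, 1 of which held 55.2% of them. The myeloid gene Chil3 and Ly6c2 were also among them, at 8.03 and 74.0 and at 10.6 and 72.2 CPM, with 58.8% and 23.1% of their ENZ UMIs in 1 barcode. Ly6c2 was at 434 and 734 CPM in CD8 T barcodes, against 30.2 and 36.7 CPM in all other barcodes. Tnfsf4, the ligand of OX40, was at 14.8 and 65.7 CPM in 26 and 18 barcodes, with 56.3% of its ENZ UMIs in 1 barcode. Tmsb15a, a thymosin, was at 14.8 and 64.8 CPM in 25 and 17 barcodes, with 28.6% in 1 ENZ barcode.

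Among the 12 lowest, the mast cell protease genes Mcpt4, Tpsb2, Cpa3 and Cma1 had 98.6%, 96.8%, 100% and 92.1% of their control UMIs in 1 barcode, and the hemoglobin gene Hbb-bs 97.5%. The neutrophil genes S100a9, at 205 and 31.5 CPM, and S100a8, at 85.4 and 19.4 CPM, and the cytokine gene Il1b, at 224.5 and 80.5 CPM, were found in 101, 44 and 81 control barcodes, and the 5 richest in each gene held 77.1%, 78.2% and 47.5% of its UMIs. Without the 5 richest barcodes the ratios of S100a9, S100a8 and Il1b were 0.346, 0.365 and 0.162 in place of 0.154, 0.228 and 0.359. Ccdc162 and Hgsnat, with ratios of 0.127 and 0.235, were spread over 111 and 88 control barcodes. Over all compared genes, 165 of the 194 higher and 91 of the 99 lower genes stayed past the fold without the barcode richest in each gene.

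NK and CD8 T barcodes lay far apart in Gzmc and Prf1 and closer in Gzmb, Nkg7 and Ccl5. Gzmc was at 5241 CPM in NK and 13.1 CPM in CD8 T barcodes of the control library and at 7774 and 18.4 CPM in the ENZ library. Prf1 was at 374 and 49.6 CPM in control and 843 and 31.7 CPM in ENZ. Gzmb was at 678 and 418 CPM in control and 1170 and 626 CPM in ENZ, and Nkg7 at 704 and 768 CPM and 559 and 748 CPM. Ccl5 was at 1982 and 2341 CPM in control and 990 and 2817 CPM in ENZ. Gzmk, a tryptase of memory CD8 T cells, was at 3.38 CPM in NK and 73.1 CPM in CD8 T barcodes of the control library. Genes of the rule set NK apart by choice, and the others were measured in the same barcodes. The choice of CD8 T barcodes also left out those with 2 or more UMIs of the NK receptor genes, which may widen the gap. Barcodes with 2 or more UMIs of these genes and 2 or more of Cd3d and Cd3e were in neither set. They held Gzmc at 3813 and Prf1 at 193 CPM in control, and 69.4 and 48.0 CPM in ENZ. Dscam, a cell adhesion gene known from neurons, was among the 20 genes with the highest ratio of NK to all other barcodes, at 838 and 1007 CPM, and was found in 39.1% and 40.7% of thinned NK barcodes against 0.634% and 0.109% of keratin barcodes. CD8 T barcodes also held it, at 222 and 164 CPM, against 16.3 and 8.32 CPM in all other barcodes.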

How the data were processed

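The authors deposited unfiltered UMI counts per gene and barcode for each library, made with Cell Ranger 7.2.0 according to the file headers, whereas the submitters' processing notes name Cell Ranger 2.1.1 and mm10. Whether intron reads were counted is not given in the sources used here. The libraries held 170830346 (control) and 162030149 (ENZ) UMIs. Total counts per gene were summed over the NK barcodes of each library and scaled to CPM, which was not divided by gene length because 3′ ends were counted. Ratios carry exact conditional binomial intervals, levels exact Poisson intervals and shares Clopper-Pearson intervals, all covering counting error only, at 95%. A share of 0 carries the limit set by 3 counts. Ratios were computed with Python 3.11.15, numpy 2.4.6 and scipy 1.17.1, and were checked on simulated counts. These counts were independent Poisson draws, which the intervals assume. The check covers the calculation only and not the spread of UMIs between barcodes. Genes were compared from 50 CPM in at least 1 library, leaving out mitochondrial genes and the 10 rule genes. The genes named are the 5 markers, the 12 highest and 12 lowest ratios by the interval bound nearer to 1, the 20 highest ratios to all other barcodes, and in each list the 4 of highest CPM and the 2 farthest from 1. Others were chosen after their values were seen. Among them were the genes of the poles, Eomes, Tbx21, Ifng, the checkpoint genes, Itgam, Itga1, Cxcr6, Klra3, Klrc1, Cd96, Ctla4, Cd160 and Cd226. Members and lists were chosen with earlier results of these data known. Doublets were not removed in the main values. Scanpy 1.11.5 gave doublet scores for an alternative, for which its automatic threshold marked 0 control barcodes, so the ENZ threshold of 0.25 was used for both. No deposited column of per-sample values was left unused. Some genes met by the naming rule are not reported here.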

Additional observations from a re-analysis of the deposited data

Results flagged for a closer look

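Irf8, an interferon regulatory factor, was at a ratio of 1.46 (ENZ over control CPM) in NK barcodes and 0.347 in CD8 T barcodes, and Ccl5 at 0.4996 in NK and 1.20 in CD8 T barcodes. Serpinb6b was at 0.798 and 1.38, Dscam at 1.20 and 0.737, and Srgn at 1.18 and 0.816 in NK and CD8 T barcodes. For these 5 genes the counting intervals of the 2 cell types lay on opposite sides of 1. Without its 5 richest barcodes Dscam had an NK ratio of 1.06 (0.969 to 1.15), an interval that includes 1. The Irf8 ratio in NK barcodes was 0.995 (0.672 to 1.44) from 1000 to 3000 UMIs, 1.12 (0.952 to 1.32) from 3000 to 6000 and 1.65, with an interval above 1, from 6000. Its log2 ratio was 0.12 in barcodes with no C1q or keratin UMI, in place of 0.55. With 1 library per treatment the difference was not tested, and the CD8 T values rest on 55 control and 92 ENZ barcodes.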

How the results depend on the processing

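The share difference between the libraries (ENZ minus control, -1.67 percentage points) was -2.63 with a receptor sum of at least 1 UMI, -0.776 with at least 4, -1.20 with no C1q or keratin UMI, -1.26 with the rule on thinned barcodes and -2.38 over barcodes with a Ptprc UMI. The number of genes at least 1.5 times higher (194) and lower (99) was 124 higher with a receptor sum of at least 1, and 342 and 191 with at least 4. It was 305 and 189 with a denominator that leaves out mitochondrial and ribosomal protein genes and the rRNA-like list, 540 and 357 from 20 CPM, and 39 and 17 from 200 CPM. The lower count was 235 with no C1q or keratin UMI and 181 with the rule on thinned barcodes. The granzyme median log2 ratio (1.14) was 0.69 with no Cd3d or Cd3e UMI, 0.82 with no C1q or keratin UMI, 0.23 with the rule on thinned barcodes and 0.75 as a mean of barcode CPM. Gzme reversed to a log2 ratio of -0.28 with the rule on thinned barcodes. The cause was not tested.

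Alternatives chosen after seeing the data gave, without barcodes with over 5 UMIs of other markers, a share difference of -1.003, 336 higher and 181 lower genes and a granzyme median of 0.80. Without the 5 barcodes richest in each gene there were 103 higher and 225 lower genes (3 genes with no UMI left kept their value) and a median of 0.44, and without the 5 deepest barcodes the median was 0.26. Both removals take a larger part of the 150 ENZ than of the 384 control barcodes. The first chooses barcodes by the gene itself, so it tends to lower ratios by construction. Over 18 alternatives each, the log2 ratio ranged from 0.68 to 1.27 for Prf1, -0.93 to -0.13 for Gzma, -1.27 to -0.47 for Ccl5 and 0.77 to 1.22 for Id2, with the direction kept. It ranged from 0.03 to 2.42 for Gzmd, 0.63 to 6.83 for Gzmf, 0.52 to 4.86 for Gzmg, 0.12 to 0.80 for Gzmc and 0.17 to 1.11 for Gzmb. The fold of 1.5 was lost in 6 alternatives for Klra4, 5 each for Gzmb and Il12rb2, 3 for Gzme, 2 for Gzmd and 1 each for Gzmg, Ccl5 and Cd74, and reached in 7 for Top2a (down to -1.75), 4 for Hmgb2, 2 each for Gzma, Gzmc, Klra8 and Xcl1 and 1 each for Klra7 and Irf8. No paired analysis was possible because each treatment had 1 library. Few barcodes carry many UMIs of a gene, so the spread between barcodes is wider than the counting intervals.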

Other observations

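Barcodes of 10 to 100 UMIs, which mostly hold free RNA, contained Gzmf at 187 CPM in control and 149.5 CPM in ENZ, against 140 and 1463 CPM in NK barcodes. Gzmg in such barcodes was at 128.5 and 172 CPM, Gzmd at 106 and 82.3 CPM, Gzmc at 148 and 139 CPM, and Gzma at 68.0 and 32.8 CPM. Such a barcode had a mean of 53.6 UMIs in control and 68.2 UMIs in ENZ.

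Barcodes that met the receptor limit but held 2 or more UMIs of Cd3d and Cd3e numbered 48 in control and 24 in ENZ. Gzmc was at 3813 CPM in the former and 69.4 CPM in the latter, and Gzma at 1366 and 384 CPM.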
